A study of Oryza sativa with 16 samples.

Results

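A stretch of early chromosome 4 was described locus by locus in flag leaves of 2 rice genotypes. It holds the loci numbered from LOC_Os04g03980 to LOC_Os04g12000 in the Rice Genome Annotation Project nomenclature, in which the number rises along the chromosome. Of 702 loci of this range in the count table, 364 had no count in any of the 16 libraries, 155 had 1 to 9 counts in total, and 183 reached the minimum of 10 counts. The rule that chose the block set 6 of these aside (LOC_Os04g08740 and the 5 loci LOC_Os04g09900, LOC_Os04g09920, LOC_Os04g10010, LOC_Os04g10060 and LOC_Os04g10160), which left 177 loci of 28283 tested in all. At the edge of the count minimum, 3 loci of the block had 10 or 11 counts and 12 loci of the range fell just short with 8 or 9.

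The tested line, DTY-IL, is a single F7 introgression line that carries chromosome fragments of the drought-tolerant landrace N22 in the background of Swarna, a high-yielding and drought-susceptible indica variety. Plants of both genotypes stood in pots in a greenhouse and were either kept well watered (control) or exposed to reproductive-stage drought stress (RDS), with soil at 75% of field capacity for 9 days and at 50% for 3 more days. Flag leaves were taken on day 12. There were 4 biological replicates of DTY-IL under RDS, DTY-IL under control, Swarna under RDS and Swarna under control.

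In an introgression line, chromosome stretches inherited from the donor differ in sequence from the recurrent parent, whereas the rest of the genome is shared. A stretch in which many neighbouring genes differ in transcript level between line and parent is therefore a place where alleles may differ, but reads of both genotypes were assigned to transcripts of another, japonica genome, and a count falls where an allele matches that reference poorly or lacks the gene. The short arm of rice chromosome 4 is largely heterochromatic, with many transposon-related gene models and few strongly transcribed genes. The best-known genes of this stretch form the cluster for momilactones, diterpenoid defence compounds of rice, and the 5 loci set aside are of that cluster. Whether further loci of the cluster remain in the block was not checked. The loci described below carry no gene name in the data, so that no role is given for them. RefSeq names were looked up for all 177 loci and matched 0.

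The block was quiet. Only 26.1% of the loci in its range reached 10 counts, against 50.7% of all 55801 loci in the table. The median locus of the block had a mean of 9.19 counts per library, whereas the median over all tested loci was 83.9. Low counts were not particular to the block. This median was 66.1 in the 100 tested loci just before it, but 7.88 in the 100 just after it and 13.6 among chromosome 4 loci numbered 20000 to 30000. The mean was below 10 counts in 91 loci, from 10 to under 50 in 35 and at least 50 in 51. A count was present in all 16 libraries for 88 loci, and 39 loci were without a count in at least 8 libraries. Library totals ran between 14250527 and 19367077 counts, so that a locus with few counts is known only roughly, and levels are not compared between loci because the table gives no transcript lengths.

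The 8 loci with the most counts had means of at least 1000 per library. LOC_Os04g05010 led with 3469, followed by LOC_Os04g11390 with 2160, LOC_Os04g08350 with 1845, LOC_Os04g11400 with 1774, LOC_Os04g11880 with 1414, LOC_Os04g04020 with 1314, LOC_Os04g10940 with 1297 and LOC_Os04g06770 with 1282. CPM values (counts scaled to a common library size with the trimmed mean of M values, TMM) summed over the block overlapped between drought and control, with 1463 to 1687 in DTY-IL under RDS, 1398 to 1515 in DTY-IL under control, 1477 to 1722 in Swarna under RDS and 1508 to 1562 in Swarna under control. Without LOC_Os04g05010 the sums were 1264 to 1470 in DTY-IL under RDS and 1361 to 1447 in DTY-IL under control, and 1209 to 1259 in Swarna under RDS and 1378 to 1428 in Swarna under control, where they did not overlap. As counts per 1000000 of the library total, without TMM, the block held 1729 to 1834 in DTY-IL under RDS against 1240 to 1337 under control, and 1845 to 2250 in Swarna under RDS against 1149 to 1308 under control. LOC_Os04g05010 alone made up 7.01% to 18.2% of the block's counts in DTY-IL under RDS and 2.65% to 4.98% in DTY-IL under control. Its share in Swarna was 18.1% to 28.8% under RDS and 6.13% to 8.59% under control.

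Marker loci were read as the labels of tissue and treatment describe. The 7 leaf photosynthesis loci used as markers were all tested and summed to 9784 CPM or more in every library, while 4 of the 7 flower organ loci were tested, 1 was at 0 and their sum stayed at 17.7 CPM or less. The 2 seed storage loci summed to 5.79 to 10.8 CPM. The 3 drought-induced LEA (late embryogenesis abundant) loci summed to 896 to 3021 CPM in DTY-IL under RDS, against 347 to 766 CPM in DTY-IL under control. In Swarna they summed to 3349 to 5229 CPM under RDS, against 390 to 848 CPM under control. Any pair of libraries of one group differed by far more than counting error.

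The first comparison asked where the genotypes differ along the block. The block was chosen by the fitted genotype differences in these same libraries, under control and under RDS, so that the values are a description with no test attached. Past a Benjamini-Hochberg adjusted p of 0.05 and an absolute log2 fold change of 1 in the edgeR fit of all tested loci were 28 loci (15.8%) under RDS, 16 higher and 12 lower in DTY-IL, where the share over all tested loci was 6.59% (4.20% higher, 2.39% lower). Under control there were 26 (14.7%), 13 higher and 13 lower, where the share over all tested loci was 5.11% (2.99% higher, 2.12% lower). The loci were the same in part: 10 were higher and 6 lower in both treatments, 12 passed under RDS alone, 10 under control alone and none in opposite directions. At 139 loci the thresholds were passed in neither treatment.

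**Figure D1:**
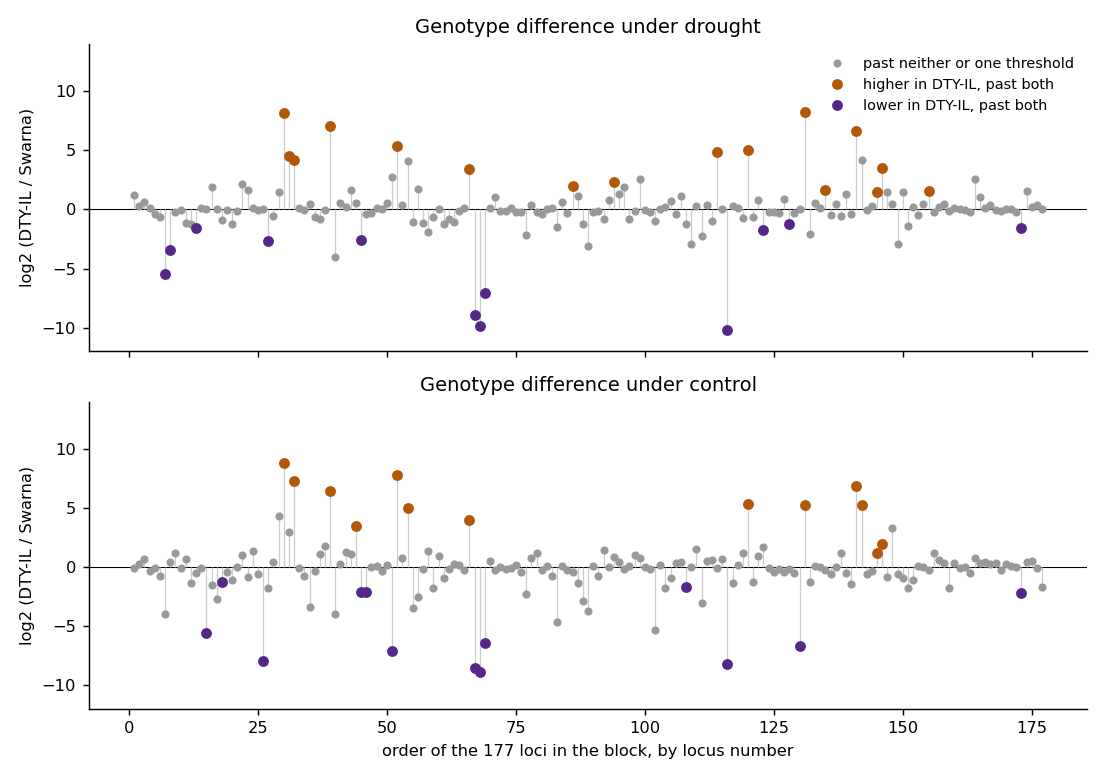
Fitted log2 fold change of DTY-IL against Swarna (vertical axis) for each of the 177 loci in order of locus number (horizontal axis), under drought in the upper panel and under control in the lower panel. Orange points are past both thresholds and higher in DTY-IL (16 under drought, 13 under control), purple points are past both and lower in DTY-IL (12 and 13), and grey points are the rest; loci past both thresholds are of both directions and are unevenly spread.

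Many of these loci had few counts. A mean below 10 counts per library was found for 10 of the 28 loci under RDS and 13 of the 26 under control. Among the 51 loci with a mean of at least 50 counts, 11 passed under RDS (21.6%, against 5.81% of all tested loci above that mean) and 8 under control (15.7%, against 4.85%), a restriction chosen after seeing the data. The median size of the genotype difference, regardless of sign, was 0.59 on the log2 scale under RDS, against 0.33 over all tested loci, and 0.66 under control, against 0.36. Above 50 counts these medians were 0.35 against 0.23 under RDS and 0.29 against 0.25 under control.

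Another description, without thresholds, counts loci at which all 4 DTY-IL libraries lay above, or all 4 below, the 4 Swarna libraries. Under RDS this held for 39 loci (19 higher and 20 lower in DTY-IL), where the share over all tested loci was 15.9% (8.75% higher, 7.14% lower), and under control for 40 (20 and 20), where that share was 17.4% (8.26% higher, 9.17% lower). In both treatments and in one direction it held for 20 loci, or 11.3% of the block, of which 13 were higher and 7 lower in DTY-IL, where the share over all tested loci was 3.22% (1.69% higher, 1.54% lower).

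The clearest of them were read in a single genotype, with at least 10 counts in each of its 8 libraries and at most 3 in each library of the other. There were 2 such loci for DTY-IL and 3 for Swarna, and over all tested loci 72 (0.255%), of which 41 (0.145%) were read in DTY-IL and 31 (0.110%) in Swarna. LOC_Os04g05750 had 199, 123, 187 and 176 counts in DTY-IL under RDS, against 1, 0, 0 and 1 in Swarna under RDS. Under control it had 188, 184, 179 and 128 counts in DTY-IL, against 1, 0, 0 and 0 in Swarna. Set against a floor of 3 counts per library, it was higher in DTY-IL by at least 61.6-fold under RDS and by at least 50.9-fold under control.

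LOC_Os04g10530 had 109, 146, 84 and 99 counts in DTY-IL under RDS, against 0, 0, 0 and 1 in Swarna under RDS. In control plants it had 18, 10, 15 and 16 counts in DTY-IL, against 1, 0, 0 and 0 in Swarna. It was higher in DTY-IL by at least 40.2-fold under RDS and by at least 4.48-fold under control, and the DTY-IL plants under RDS stood apart from those under control as well.

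The 3 loci read in Swarna alone included a pair of neighbours. LOC_Os04g08190 had 1, 0, 0 and 0 counts in DTY-IL under RDS, against 261, 480, 482 and 316 in Swarna under RDS. Well-watered plants had 1, 0, 0 and 0 counts in DTY-IL, against 196, 159, 144 and 135 in Swarna. Its level was lower in DTY-IL by at least 118-fold under RDS and by at least 57.6-fold under control. LOC_Os04g08180, next to it, had no count in any of the 8 DTY-IL libraries, against 69, 64, 117 and 43 counts in Swarna under RDS and 43, 38, 37 and 34 in Swarna under control. This puts it lower in DTY-IL by at least 22.6-fold under RDS and by at least 13.9-fold under control.

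LOC_Os04g10214 had no count in DTY-IL under RDS, against 192, 171, 125 and 216 in Swarna under RDS. Under control it had 0, 0, 0 and 1 counts in DTY-IL, against 90, 158, 67 and 77 in Swarna, and was thus lower in DTY-IL by at least 53.7-fold under RDS and by at least 36.4-fold under control. Summed over the loci read in Swarna alone, no DTY-IL library held more than 1 count, and summed over those read in DTY-IL alone, no Swarna library held more than 2.

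Other loci were read in both genotypes at unequal levels. LOC_Os04g10940, among the 8 with the most counts, had 183, 112, 107 and 126 CPM in DTY-IL under RDS, against 8.21, 14.9, 13.7 and 10.6 CPM in Swarna under RDS (132 ± 35.1 and 11.8 ± 3.02, mean and SD, n = 4 each). In control plants it had 135, 141, 142 and 124 CPM in DTY-IL, against 33.6, 32.2, 41.4 and 34.6 CPM in Swarna. The fitted log2 fold change was 3.48 (SE 0.20) under RDS and 1.94 (SE 0.19) under control, and the genotypes were apart by more than their spread in both treatments. Its tested neighbour LOC_Os04g10924 was higher in DTY-IL too, with 20, 13.6, 11.1 and 11.9 CPM in DTY-IL under RDS, against 2.45, 7.53, 5.76 and 4.80 CPM in Swarna under RDS. Well-watered plants had 27.8, 27.0, 31.9 and 45.8 CPM in DTY-IL, against 13.99, 15.11, 14.27 and 14.04 CPM in Swarna.

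LOC_Os04g06590 lay the other way. It had 1.42, 1.07, 1.71 and 0.854 CPM in DTY-IL under RDS, against 13.0, 5.43, 4.91 and 6.66 CPM in Swarna under RDS. Under control it had 0.900, 1.13, 2.00 and 0.670 CPM in DTY-IL, against 7.06, 4.59, 5.12 and 4.10 CPM in Swarna. The fitted log2 fold change was -2.56 (SE 0.36) under RDS and -2.13 (SE 0.37) under control, with no overlap between the genotypes in either treatment.

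Smaller separations of the same kind were seen at 4 further loci with at least 50 counts in the higher genotype. LOC_Os04g08828 was higher in DTY-IL with log2 fold changes of 2.30 under RDS and 0.87 under control, LOC_Os04g10350 with 0.76 and 0.94, and LOC_Os04g04000 with 0.63 and 0.66. LOC_Os04g04030 was lower in DTY-IL, with -0.61 under RDS and -0.73 under control. At LOC_Os04g10350, LOC_Os04g04000 and LOC_Os04g04030 the genotypes did not overlap, but the differences stayed under the fold threshold.

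**Figure D2:**
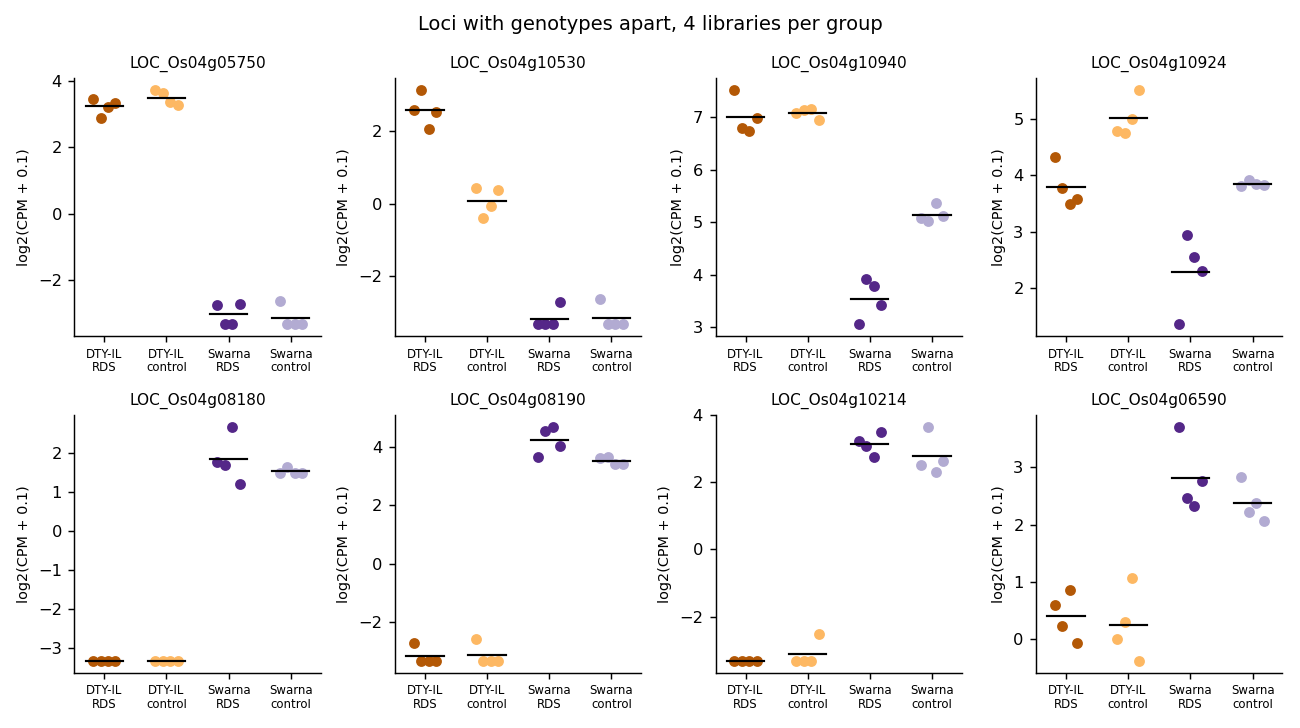
Level of 8 loci in each of the 16 libraries, as log2 of CPM plus 0.1 (vertical axis, a separate scale for each locus), for DTY-IL under RDS, DTY-IL under control, Swarna under RDS and Swarna under control from left to right. Each point is 1 library and each black line the mean of 4; the 4 loci of the upper row are higher in all DTY-IL libraries than in the Swarna libraries of the same treatment and the 4 of the lower row are lower, with LOC_Os04g08180 at 0 counts in all DTY-IL libraries.

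Of pairs of loci past both thresholds that follow each other among the tested loci, 6 had one direction and 1 had opposite directions under RDS, and 5 and 4 under control. Like counts over all tested loci were not computed, so that nothing is read from these pairs. The loci named next were picked after their values were seen. LOC_Os04g08170 had 16, 15, 8 and 16 counts in DTY-IL under RDS, against 3, 1, 0 and 1 in Swarna under RDS. In control plants it had 11, 6, 6 and 16 counts in DTY-IL, against 2, 0, 0 and 0 in Swarna. The 3 tested loci that follow, LOC_Os04g08180, LOC_Os04g08190 and LOC_Os04g08200, were all lower in DTY-IL. LOC_Os04g08200 had no count in any DTY-IL library, against 14, 27, 24 and 12 in Swarna under RDS and 6, 14, 8 and 7 in Swarna under control.

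Close to LOC_Os04g05750, LOC_Os04g05770 had 15, 22, 5 and 17 counts in DTY-IL under RDS, against 1, 1, 0 and 1 in Swarna under RDS. Well-watered plants had 16, 21, 10 and 21 counts in DTY-IL and 0 in all Swarna libraries. Some loci before LOC_Os04g10924, LOC_Os04g10840 had 7, 16, 18 and 13 counts in DTY-IL under RDS and 20, 10, 11 and 11 in DTY-IL under control, against 0 in all 8 Swarna libraries. Over the block, 7 loci were at 0 in every Swarna library and 7 at 0 in every DTY-IL library. The latter include LOC_Os04g04670, LOC_Os04g05470 and LOC_Os04g10500, which were at 0 in Swarna under RDS too. All such loci pass the count minimum only through the other genotype. Their share over all tested loci was not computed, so that nothing is read from these counts.

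Along the block the genotype differences were uneven. Among 33 loci numbered from LOC_Os04g10000 to LOC_Os04g10940, 10 (30.3%) passed both thresholds under RDS and 8 (24.2%) under control. Among 30 loci from LOC_Os04g11130 to LOC_Os04g11990 it was 2 (6.67%) under RDS and 1 (3.33%) under control, and among 18 loci from LOC_Os04g09260 to LOC_Os04g09860 it was 0 under RDS and 1 (5.56%) under control. In that last stretch DESeq2 passed 1 under RDS and 2 under control, so that the counts there depend in part on the method. A locus that misses the thresholds is not thereby shown to be equal in the genotypes. No test is attached to these counts.

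The differences did not end at the limits of the block. Of the 100 tested loci just before it 20% passed under RDS and 12% under control, and of the 100 just after it 19% and 17%. Farther along, the share was 20.2% under RDS and 17.8% under control among 258 loci numbered 20000 to 30000, but 5.30% and 3.74% among 1792 loci numbered above 30000. The loci inside the first limit, LOC_Os04g03980, LOC_Os04g03990 and LOC_Os04g04000, had log2 fold changes of 1.197, 0.33 and 0.63 under RDS and -0.12, 0.21 and 0.66 under control. Just outside it, LOC_Os04g03910 had 19, 28, 41 and 18 counts in DTY-IL under RDS, against 0, 1, 0 and 0 in Swarna under RDS, and 24, 38, 50 and 28 in DTY-IL under control, against 1, 1, 1 and 2 in Swarna under control. It was higher in DTY-IL by at least 9.45-fold under RDS and by at least 10.3-fold under control. LOC_Os04g03884 had log2 fold changes of 0.49 under RDS and 1.04 under control, and LOC_Os04g03860 had at most 4 counts in any library.

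At the far limit, LOC_Os04g11970 had log2 fold changes of 0.17 under RDS and 0.51 under control. LOC_Os04g11990 had at most 4 counts in any library. LOC_Os04g12000 had no count in either genotype under RDS, and under control 0, 0, 4 and 0 counts in DTY-IL, against 2, 6, 2 and 2 in Swarna. Beyond the limit, LOC_Os04g12010 had log2 fold changes of 0.02 under RDS and -0.11 under control and LOC_Os04g12090 had 0.51 and 1.21, while LOC_Os04g12120 had at most 3 counts in any library.

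**Figure D3:**
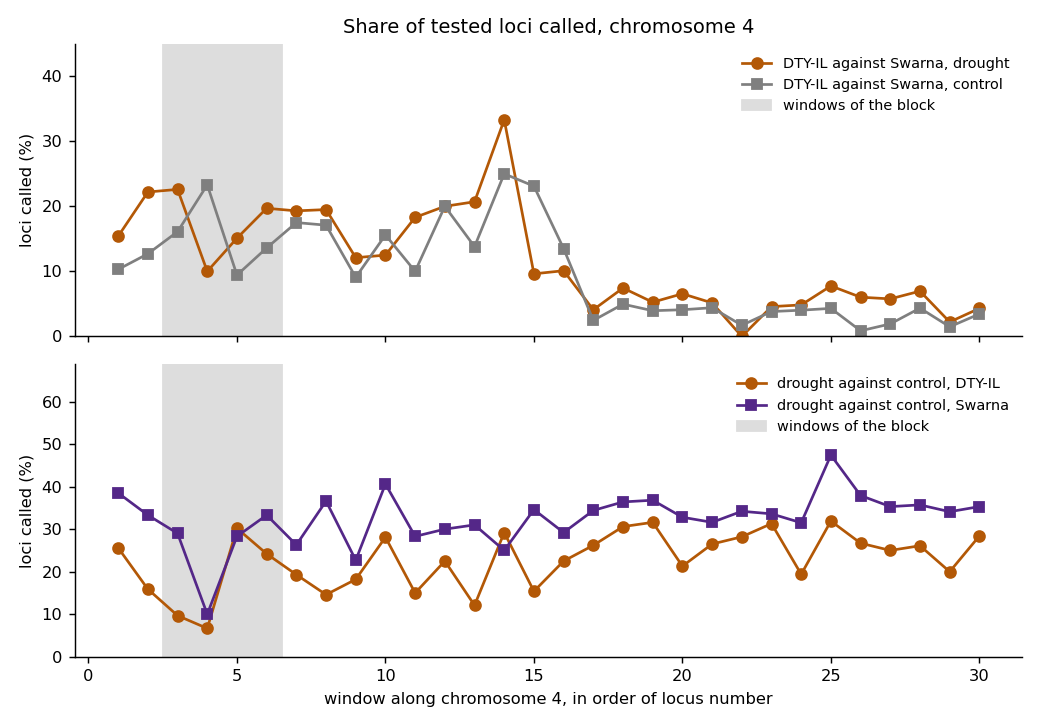
Share of tested loci past both thresholds (vertical axis, percent) in 30 consecutive windows of 2000 locus numbers along chromosome 4 (horizontal axis, window number), for DTY-IL against Swarna in the upper panel and for drought against control in the lower panel. The grey band marks the 4 windows that hold the block, with the 6 loci set aside included. In the upper panel the shares stay near those of the block on both sides of it and are 7.76% or less from window 17 on. In the lower panel the shares scatter, with the lowest, 6.67% in DTY-IL and 10% in Swarna, inside the band. Of loci numbered above 30000, 26.2% changed in DTY-IL and 35% in Swarna, against 19.8% and 27.1% of the block.

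The second comparison asked how the loci responded to drought in each genotype. It uses contrasts that the choice of the block did not use, so that edgeR tests are given. These contrasts share their libraries with the genotype contrasts, however, so that the tests are not independent of the choice. In DTY-IL 35 loci (19.8%) changed, 16 up and 19 down, where 23.5% of all tested loci changed, 12.0% up and 11.5% down. In Swarna 48 loci (27.1%) changed, 19 up and 29 down, where 32.6% of all tested loci changed, 15.2% up and 17.3% down. Among loci with a mean of at least 50 counts, the shares were 23.5% in DTY-IL, against 23.2% over all tested loci above that mean, and 27.5% in Swarna, against 31.4%. Drought and control libraries did not overlap at 42 loci in DTY-IL (22 higher and 20 lower under RDS), where the share over all tested loci was 35.0% (18.6% higher, 16.4% lower), and at 58 in Swarna (26 and 32), where it was 46.8% (24.5% higher, 22.3% lower). The median log2 fold change of the block was 0 in both genotypes, against 0.03 in DTY-IL and 0.06 in Swarna over all tested loci.

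The balance of rises and falls depended on the scaling. The TMM factors were 1.09 to 1.18 in DTY-IL under RDS against 0.835 to 0.906 in DTY-IL under control, and 1.22 to 1.31 in Swarna under RDS against 0.762 to 0.848 in Swarna under control. With library size alone, 23 loci rose and 14 fell in DTY-IL and 45 rose and 23 fell in Swarna, while the median over all tested loci moved to 0.43 in DTY-IL and 0.70 in Swarna. The summed photosynthesis markers moved with the treatment as well, at 17538 to 34702 CPM in DTY-IL under RDS against 98720 to 120366 CPM in DTY-IL under control, and at 9784 to 16688 CPM in Swarna under RDS against 107684 to 156954 CPM in Swarna under control. The flower organ markers summed to 3.99 to 7.01 CPM in DTY-IL under RDS against 5.73 to 11.5 CPM under control, and to 3.02 to 5.52 CPM in Swarna under RDS against 11.5 to 17.7 CPM under control. The part of these marker levels in the changes was not tested, and fewer cells of a type cannot be told apart from less RNA per cell in whole leaves.

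Of 58 loci that changed in either genotype, 11 rose in both (6.21% of the block, against 8.94% of all tested loci) and 12 fell in both (6.78%, against 9.32%). The 2 that changed in opposite directions (1.13%) both fell in DTY-IL and rose in Swarna, as did 9 of all tested loci (0.0318%). The reverse, a rise in DTY-IL and a fall in Swarna, was found at 0 loci of the block and at 49 of all tested loci (0.173%). With 2 loci, nothing is read from this contrast. In DTY-IL alone 5 rose (2.82%, against 2.87%) and 5 fell (2.82%, against 2.15%), and in Swarna alone 6 rose (3.39%, against 6.26%) and 17 fell (9.60%, against 7.85%). The falls in Swarna alone include LOC_Os04g04670 and LOC_Os04g05470. Both passed the count minimum only through Swarna under control, so that their falls follow from the filter in part. With filterByExpr, the low-count filter of edgeR, 15 loci rose and 18 fell in Swarna, in place of 19 and 29. A change called in one genotype alone is not by itself a difference between the genotypes. At 104 loci neither the genotype nor the drought contrasts passed their thresholds.

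**Figure D4:**
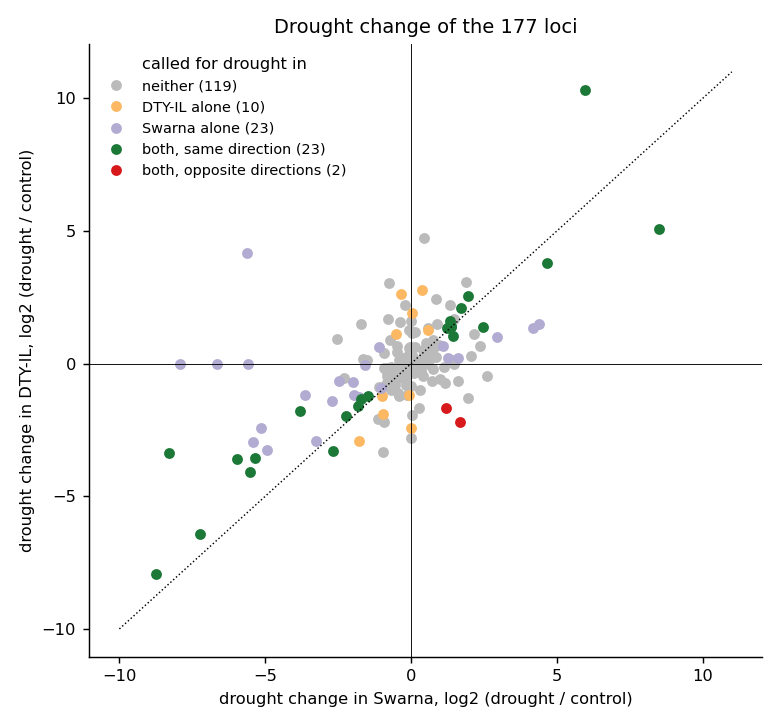
Fitted log2 fold change of drought against control in DTY-IL (vertical axis) and in Swarna (horizontal axis) for the 177 loci, with the dotted line marking equal change. Points are coloured by the calls: 119 loci in neither genotype, 10 in DTY-IL alone, 23 in Swarna alone, 23 in both in the same direction and 2 in both in opposite directions.

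The largest fitted falls in DTY-IL were those of 3 loci that follow each other among the tested loci. LOC_Os04g08824 had 0, 0, 2 and 0 counts in DTY-IL under RDS, against 108, 175, 54 and 152 in DTY-IL under control. In Swarna it had 0, 1, 0 and 0 counts under RDS, against 90, 155, 107 and 108 under control. Its level was at least 50.8-fold lower under RDS in DTY-IL (edgeR adjusted p = 4.90e-08) and at least 56.6-fold lower in Swarna (edgeR adjusted p = 1.64e-08). Its transcript was thus at or near the detection limit in all 8 libraries under RDS and well read in all 8 under control. The locus passed the count minimum only through the control libraries, so that its fall follows from the filter in part.

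LOC_Os04g08836 behaved alike, with 1, 0, 0 and 2 counts in DTY-IL under RDS, against 70, 60, 75 and 45 in DTY-IL under control. The Swarna libraries had 0, 1, 0 and 0 counts under RDS, against 81, 30, 31 and 28 under control. The level was at least 24.9-fold lower under RDS in DTY-IL (edgeR adjusted p = 8.56e-08) and at least 19.7-fold lower in Swarna (edgeR adjusted p = 5.35e-08). LOC_Os04g08836, too, passed the count minimum only through the control libraries. The fitted fold changes of both loci moved with single libraries, and bounds are given in their place. For LOC_Os04g08824 the fitted log2 fold change was -7.91 in DTY-IL, or -10.11 without DTY-IL RDS replicate 3, and -8.74 in Swarna, or -10.15 without Swarna RDS replicate 2. For LOC_Os04g08836 it was -6.41 in DTY-IL, or -7.34 without DTY-IL RDS replicate 4, and -7.23 in Swarna, or -8.65 without Swarna RDS replicate 2.

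LOC_Os04g08828, numbered between them, kept some reads under RDS. It had 0.437, 0.653, 1.36 and 0.854 CPM in DTY-IL under RDS, against 14.2, 16.3, 12.2 and 15.1 CPM in DTY-IL under control, a log2 fold change of -4.10 (SE 0.31, edgeR adjusted p = 1.91e-08). Swarna had 0.288, 0.0489, 0.160 and 0.155 CPM under RDS, against 9.52, 7.67, 5.05 and 9.39 CPM under control, a log2 fold change of -5.53 (SE 0.38, edgeR adjusted p = 2.63e-09). Drought and control libraries did not overlap in either genotype, and DTY-IL lay above Swarna in both treatments. Whether reads could be shared among these closely numbered loci was not tested.

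LOC_Os04g08350, among the 8 with the most counts, fell in both genotypes. It had 50.0, 61.3, 30.6 and 30.4 CPM in DTY-IL under RDS, against 180, 182, 144 and 165 CPM in DTY-IL under control (log2 fold change -1.96, SE 0.20, edgeR adjusted p = 4.43e-07). Its values in Swarna were 39.4, 49.2, 52.0 and 53.9 CPM under RDS, against 224, 213, 232 and 242 CPM under control (log2 fold change -2.23, SE 0.20, edgeR adjusted p = 5.88e-08). The groups were far apart compared with their spread.

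Fewer counts lay behind 2 other loci that fell in both genotypes, LOC_Os04g09430 and LOC_Os04g10000, which were chosen after their values were seen. LOC_Os04g09430 had 6, 0, 5 and 8 counts in DTY-IL under RDS, against 44, 41, 50 and 54 under control, and in Swarna 0, 3, 0 and 0 under RDS, against 41, 14, 17 and 31 under control. LOC_Os04g10000 had 1, 12, 1 and 1 counts in DTY-IL under RDS, against 23, 38, 28 and 44 under control. In Swarna it had 0 in all 4 libraries under RDS, against 21, 40, 44 and 21 under control. At LOC_Os04g10000, 1 library of DTY-IL under RDS (replicate 2) held most of the reads of its group, and without it the log2 fold change in DTY-IL was -5.21 in place of -3.37.

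LOC_Os04g10924 fell in both genotypes as well, by log2 fold changes of -1.23 in DTY-IL (edgeR adjusted p = 0.000911) and -1.48 in Swarna (edgeR adjusted p = 0.000166). In DTY-IL it did not pass the fold threshold with library size alone, where its log2 fold change was -0.84. The level in DTY-IL under RDS, 14.2 ± 4.04 CPM, was close to that in Swarna under control, 14.3 ± 0.519 CPM (SD, n = 4 each).

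Among the rises, LOC_Os04g05010 gave the most counts. It had 218, 103, 281 and 232 CPM in DTY-IL under RDS, against 75.4, 39.6, 43.3 and 37.1 CPM in DTY-IL under control (log2 fold change 2.09, SE 0.29, edgeR adjusted p = 1.52e-05). The Swarna libraries had 380, 495, 390 and 268 CPM under RDS, against 116, 133, 93.1 and 129 CPM under control (log2 fold change 1.70, SE 0.28, edgeR adjusted p = 7.21e-05). It rose in both genotypes, and its level under RDS overlapped between them in 1 pair of libraries only, 281 CPM in DTY-IL and 268 CPM in Swarna.

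LOC_Os04g09570 was hardly read in well-watered leaves. It had 244, 72, 101 and 274 counts in DTY-IL under RDS, against 0 in all 4 libraries of DTY-IL under control, a rise of at least 47.6-fold (edgeR adjusted p = 9.13e-06). Swarna had 505, 313, 307 and 384 counts under RDS, against 0, 14, 2 and 0 under control (log2 fold change 5.96, SE 0.72, edgeR adjusted p = 6.74e-06). Swarna control replicate 2 held 14 of the 16 control counts, and without it the log2 fold change in Swarna was 8.43.

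LOC_Os04g10370 was a further locus read almost exclusively under drought. It had 23, 4, 19 and 13 counts in DTY-IL under RDS, against 0, 0, 1 and 0 under control, a rise of at least 3.95-fold (edgeR adjusted p = 8.57e-05). Its values in Swarna were 60, 58, 42 and 53 counts under RDS, against 0 in all 4 control libraries, a rise of at least 12.1-fold (edgeR adjusted p = 7.93e-07). All Swarna libraries under RDS were above all DTY-IL libraries under RDS. The locus passed the count minimum only through the libraries under RDS, so that its rise follows from the filter in part.

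LOC_Os04g11820 rose about equally in both genotypes. It had 53.5, 87.9, 66.2 and 62.9 CPM in DTY-IL under RDS, against 24.7, 25.6, 21.0 and 29.6 CPM under control (log2 fold change 1.42, SE 0.21, edgeR adjusted p = 2.88e-05). In Swarna it had 60.6, 45.3, 51.8 and 56.7 CPM under RDS, against 17.1, 32.3, 16.8 and 16.4 CPM under control (log2 fold change 1.38, SE 0.21, edgeR adjusted p = 2.63e-05).

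Among the other loci with the most counts, drought changes were smaller. LOC_Os04g11390, LOC_Os04g11880, LOC_Os04g04020 and LOC_Os04g06770 had log2 fold changes of 0.36, 0.11, 0.28 and 0.42 in DTY-IL and of -0.06, 0.35, 0.54 and 0.66 in Swarna, none of which reached the fold threshold. Their genotype differences lay between -0.36 and 0.43 under RDS and between -0.10 and 0.01 under control. At LOC_Os04g06770 the drought libraries lay above the control libraries without overlap in DTY-IL (edgeR adjusted p = 0.00364) and in Swarna (edgeR adjusted p = 3.64e-05). In Swarna there was no overlap at LOC_Os04g04020 (edgeR adjusted p = 0.000658) and LOC_Os04g11880 either. Well-read loci that passed the thresholds in no contrast thus stood in the block beside those that did.

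The third comparison set the drought response of DTY-IL against that of Swarna. It is the difference of the genotype differences that the choice of the block used, and so again a description. The interaction passed both thresholds at 9 loci (5.08%), where the share over all tested loci was 4.91% (3.52% positive, 1.39% negative), with 5 values positive (a drought change higher in DTY-IL than in Swarna) and 4 negative. DESeq2 gave 13, of which 9 were positive, where its share over all tested loci was 6.62%. Among the 51 loci with a mean of at least 50 counts it was 6 in edgeR (11.8%, against 6.40% of all tested loci above that mean).

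The changes of LOC_Os04g04060 ran in opposite directions. It had 0.328, 0.356, 0.438 and 0.569 CPM in DTY-IL under RDS, against 2.91, 1.33, 1.54 and 2.16 CPM in DTY-IL under control, a log2 fold change of -2.203 (SE 0.34, edgeR adjusted p = 6.19e-05). The Swarna libraries had 4.99, 6.06, 4.37 and 2.94 CPM under RDS, against 1.89, 1.27, 0.952 and 1.66 CPM under control, a log2 fold change of 1.66 (SE 0.30, edgeR adjusted p = 0.000175). The genotypes overlapped under control and were completely apart under RDS, and the interaction was -3.87 on the log2 scale.

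LOC_Os04g06520 also fell in DTY-IL and rose in Swarna, with more scatter. It had 3.39, 1.84, 8.52 and 3.76 CPM in DTY-IL under RDS, against 7.06, 18.2, 14.7 and 16.8 CPM under control, where drought and control overlapped in 1 pair of libraries (log2 fold change -1.68, SE 0.40, edgeR adjusted p = 0.00254). Swarna had 4.03, 2.40, 1.81 and 3.77 CPM under RDS, against 1.89, 1.42, 1.10 and 0.710 CPM under control (log2 fold change 1.21, SE 0.45, edgeR adjusted p = 0.0334). The rise in Swarna was no longer called without Swarna control replicate 2, 3 or 4 or without Swarna RDS replicate 1 or 4, with log2 fold changes of 1.00 to 1.26. Here the genotypes were apart under control (log2 fold change of DTY-IL against Swarna 3.445) and overlapped under RDS (0.55). The interaction was -2.90.

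LOC_Os04g11400 and LOC_Os04g10940, both among the 8 with the most counts, fell in Swarna far more than in DTY-IL. LOC_Os04g11400 had 134, 90.5, 83.5 and 76.3 CPM in DTY-IL under RDS, against 160, 168, 146 and 128 CPM under control, a log2 fold change of -0.65 that was below the fold threshold (SE 0.16, edgeR adjusted p = 0.00416). Its values in Swarna were 29.0, 37.9, 32.6 and 27.8 CPM under RDS, against 177, 183, 183 and 162 CPM under control (log2 fold change -2.47, SE 0.17, edgeR adjusted p = 2.80e-09). All DTY-IL libraries under RDS lay above all Swarna libraries under RDS, and the interaction was 1.82.

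LOC_Os04g10940, whose levels are given above, had a log2 fold change of -0.04 under drought in DTY-IL (SE 0.18, edgeR adjusted p = 0.887) and fell by 1.58 in Swarna (SE 0.19, edgeR adjusted p = 2.18e-06), with an interaction of 1.54. With library size alone the fall in Swarna was -0.92 and under the fold threshold. The genotype difference at this locus was thus larger under RDS than under control.

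LOC_Os04g08550 rose in DTY-IL alone. It had 23.7, 13.5, 14.9 and 14.2 CPM in DTY-IL under RDS, against 2.21, 1.66, 3.71 and 2.08 CPM under control (log2 fold change 2.77, SE 0.31, edgeR adjusted p = 1.83e-06). In Swarna it had 4.42, 4.11, 3.63 and 4.65 CPM under RDS, against 1.64, 5.46, 3.44 and 2.60 CPM under control (log2 fold change 0.36, SE 0.31, edgeR adjusted p = 0.35). The interaction was 2.40, and the DTY-IL libraries under RDS stood above all the other 12. LOC_Os04g10530, read in DTY-IL alone, rose there by a log2 fold change of 2.62 (SE 0.34, edgeR adjusted p = 9.00e-06).

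LOC_Os04g10460 rose in both genotypes and further in Swarna. It had 7.27, 7.66, 7.99 and 7.12 CPM in DTY-IL under RDS, against 3.25, 2.25, 3.42 and 2.68 CPM under control (log2 fold change 1.37, SE 0.21, edgeR adjusted p = 4.78e-05). The Swarna libraries had 13.4, 19.99, 17.7 and 20.8 CPM under RDS, against 2.02, 4.27, 3.37 and 3.23 CPM under control (log2 fold change 2.48, SE 0.21, edgeR adjusted p = 2.94e-08). The interaction of -1.12 fell short of the thresholds when any of 6 libraries was left out, with values of -1.11 to -0.94.

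**Figure D5:**
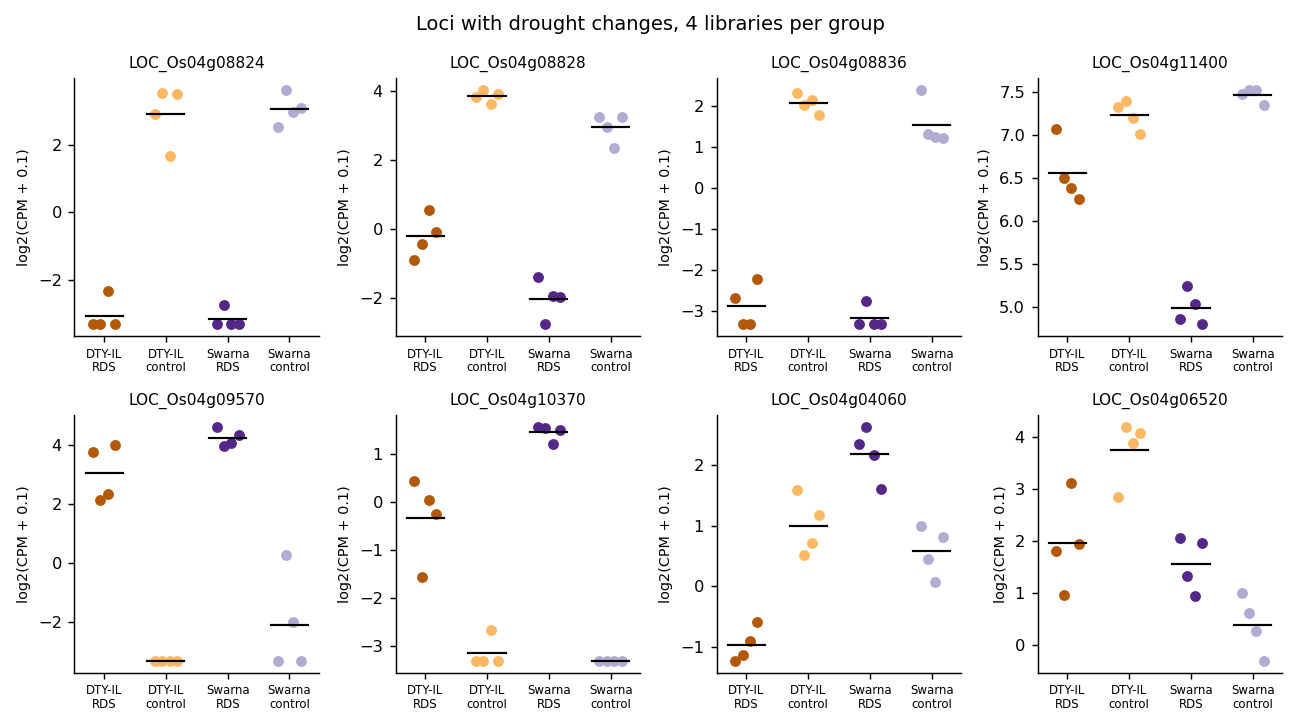
Level of 8 loci with drought changes in each of the 16 libraries, as log2 of CPM plus 0.1 (vertical axis, a separate scale for each locus), for DTY-IL under RDS, DTY-IL under control, Swarna under RDS and Swarna under control from left to right. Each point is 1 library and each black line the mean of 4; LOC_Os04g08824, LOC_Os04g08828 and LOC_Os04g08836 are low in all 8 drought libraries, LOC_Os04g09570 and LOC_Os04g10370 are high in them, LOC_Os04g11400 is lowest in Swarna under RDS, and LOC_Os04g04060 and LOC_Os04g06520 change in opposite directions.

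A last pattern, noticed in the counts and not fixed as a comparison, concerned loci read in 1 group of 4 libraries. LOC_Os04g05470 had 25, 37, 22 and 14 counts in Swarna under control, LOC_Os04g10500 had 14, 5, 7 and 15, and LOC_Os04g04670 had 3, 6, 3 and 7, and all 3 were at 0 in the other 12 libraries. Over all tested loci there were 10 such loci for Swarna under control. In the block none was read in this way in DTY-IL under RDS, in DTY-IL under control or in Swarna under RDS alone. Loci of this kind pass the count minimum only through the group in which they are read, so that their differences follow from the filter in part.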

How the data were processed

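RNA of flag leaves was sequenced in 16 libraries, grouped by the genotype and treatment in their titles. Per the labels and the study's methods, reads were trimmed with Trimmomatic and quantified with Salmon 0.7.2 against transcripts of the japonica genome IRGSP-1.0, extracted with gffread of Cufflinks 2.2.1. Each value of the deposited table is an expected count (estimated count) of a locus, summed by the authors from transcripts with tximport. All are whole numbers, and scaling by length is not stated. The 4 deposited contrast tables, with the authors' log2 fold changes, statistics and p-values, were not used.

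Loci with at least 10 counts in total (28283) were fitted in edgeR 4.0.16 (R 4.3.3) with TMM scaling in 1 quasi-likelihood model of the 4 groups. Called were loci with a p of at most 0.05 after Benjamini-Hochberg adjustment over all tested loci and a log2 fold change of 1 or more in either direction. Tests were two-sided. Folds against groups with at most 3 counts in every library are lower bounds against that floor. Library totals (14250527 to 19367077) set the counting precision, and bounds cover counting error only. The fits were tested on simulated data, summaries were made in Python 3.11.15 with pandas 2.3.3, and plots with matplotlib 3.10.9.

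The members and lists were chosen with earlier results of these data known. Named were the 3 loci at each side of both limits, and the loci with the largest genotype differences that did not overlap in both treatments (up to 8 per direction). For drought the 5 largest rises and falls per genotype were named among called loci without overlap, both with a mean of at least 50 counts in the higher group. The 8 loci with the most counts, the 3 largest interactions per direction and the loci read in a single genotype completed the list; others are marked where they appear. Alternatives were DESeq2 1.42.0, size factors by RLE, library size alone, filterByExpr or no filter, adjusted p alone, replicate blocks, other floors and leaving out each library. Sample numbers in the titles and in the descriptions were checked as pairs. By description number, the 3 pairs of DTY-IL and Swarna under RDS had correlations of deviations of 0.15 to 0.22 over 16525 loci. Pairs with unlike numbers had -0.46 to 0.35, so that the check does not establish a pairing. Neither number is stated to mark a block, and blocks by number served as alternatives only. No gene names or sequences were used.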

Additional observations from a re-analysis of the deposited data

Results flagged for a closer look

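In 9 of 98 sets of 4 libraries of a named locus, 1 library stood apart from the other 3 by Dixon's test, which chance gives in about 1 in 20 sets. Of these, 4 concerned Swarna control replicate 2: LOC_Os04g08180 with 3.01 CPM, LOC_Os04g10214 with 12.5 CPM and LOC_Os04g11820 with 32.3 CPM were highest there, and LOC_Os04g06770 with 56.8 CPM was lowest. LOC_Os04g08836 was highest in Swarna control replicate 1 with 5.11 CPM, and LOC_Os04g04000 lowest in Swarna control replicate 4 with 3.63 CPM. In DTY-IL, LOC_Os04g04000 was highest in control replicate 3 with 8.27 CPM, LOC_Os04g05010 in control replicate 1 with 75.4 CPM and LOC_Os04g08550 in RDS replicate 1 with 23.7 CPM.

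The drought change differed between the genotypes past both thresholds at 9 loci, as log2 fold change in DTY-IL minus that in Swarna. It was lower in DTY-IL at LOC_Os04g04060 (-3.87), LOC_Os04g06520 (-2.90), LOC_Os04g10460 (-1.12) and LOC_Os04g04320 (-1.07). It was higher in DTY-IL at LOC_Os04g07110 (9.81), LOC_Os04g08550 (2.40), LOC_Os04g11400 (1.82), LOC_Os04g06734 (1.72) and LOC_Os04g10940 (1.54). LOC_Os04g07110 had 0, 9, 0 and 0 counts in DTY-IL under RDS, 0 in DTY-IL under control, 0, 0, 1 and 0 in Swarna under RDS and 12, 21, 13 and 8 in Swarna under control; without DTY-IL RDS replicate 2 its value was 5.64 and no longer passed, and with so few counts the fitted value depends on the prior count. LOC_Os04g04320 gave -0.97 without Swarna control replicate 4 and then missed the fold threshold.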

How the results depend on the processing

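The 7 counts of loci in the block, over both directions, stayed within 1.5 times the reported value under every alternative run; by direction, rises in Swarna were 45 in place of 19 with library size alone, and positive interactions 9 in place of 5 with DESeq2. Leaving out each library in turn gave 33 to 37 loci for drought in DTY-IL, 43 to 50 in Swarna, 25 to 29 for genotype under RDS, 24 to 27 under control, 8 to 10 for the interaction, 20 to 22 without overlap in both treatments and 5 to 6 read in a single genotype. The other alternatives gave 32 to 48, 33 to 68, 22 to 33, 21 to 32, 7 to 13, 20 to 21 and 4 to 5 for the same 7 counts. In Swarna the lowest drought count, 33 (15 up and 18 down), came with filterByExpr, which tests fewer loci, and the highest, 68, with library size alone. Of 460 alternative values of the 20 largest drought rises and falls named per genotype (LOC_Os04g06520 is not among them), 458 kept direction and call, 2 kept direction only (LOC_Os04g10924 in DTY-IL at -0.84 and LOC_Os04g10940 in Swarna at -0.92, both with library size alone) and none turned. With the replicate block by description number, which is not stated to pair samples, 22 loci (13 higher, 9 lower) passed for genotype under RDS in place of 28. The counts for drought in DTY-IL, drought in Swarna, genotype under control and the interaction were then 32, 41, 24 and 7. With the replicate block by title number, which is not stated to pair samples either, they were 36, 47, 24 and 9, and 27 for genotype under RDS. At 91 loci with a mean below 10 counts, depth limits what could be called.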
